A study of Mus musculus with 49 samples.

Results

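This account follows 38 mouse genes of the endoplasmic reticulum (ER): the channel and receptors that carry new proteins into it, the chaperones and disulfide isomerases that fold them, the machinery that removes misfolded ones, and the sensors and outputs of the unfolded protein response. They were taken by symbol from a list of ER genes, and all 38 were found among the 55487 genes of the count table. By role they are 11 luminal chaperones and co-chaperones, 7 translocation genes, 5 disulfide isomerases, 4 sensors or regulators, 7 degradation genes and 4 stress outputs.

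The study injected tumor-bearing mice with an iron oxide nanoparticle, called BP in the labels, and sequenced RNA from the tumor and 5 other organs. BP mice (n = 3) carried the HuHER2 transgene and a palpable primary mammary tumor and received BP intravenously at 5 mg Fe per mouse. PBS mice (n = 3) were HuHER2 mice with such tumors that received PBS, so both groups carry the transgene and a tumor. Bulk RNA came from the tumor and from liver, spleen, marrow, lung and lymph node of every mouse, 36 libraries in all. Another piece of each BP organ except lung was dissociated, and a magnet recovered the nanoparticle-bearing cells: these nanoparticle-associated libraries number 3 each for tumor, spleen, liver and marrow and 1 for lymph node, from BP mouse 2. Organs were taken 7 days after injection by the series description, whereas the treatment text attached to the samples speaks of 31 days for a set of animals. Mice were palpated from the age of 7 months; their sex, their exact age at injection and the promoter of the transgene are not given in the sources used here.

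Proteins that are secreted or sit in membranes enter the ER as they are made, are folded there by chaperones and oxidised by disulfide isomerases, and are exported to the cytosol for destruction if they fail. When unfolded protein accumulates, the sensors IRE1 (gene Ern1), ATF6 and PERK raise chaperone and degradation genes through XBP1 and ATF6, and raise ATF4 and its targets through a brake on translation. ATF4 is also reached by amino acid shortage, heme shortage and oxidative stress, which act through other kinases on the same translation factor. Secretory cells such as hepatocytes, plasma cells and glandular epithelium carry much ER at rest.

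Libraries held 9362264 to 19734849 estimated counts, so that 3 counts, taken as the limit behind a value of 0, equal 0.152 to 0.320 CPM, counts scaled to a library of 1000000; such limits cover counting error only. The 38 genes together took 0.321% to 1.45% of a library's counts, and none was at 0 in any library. Marker genes matched the organ labels: summed tumor epithelium markers were 11456 to 17451 CPM in bulk tumor and at most 2012 CPM in any other bulk organ, and hepatocyte markers were 147814 to 214425 CPM in bulk liver and at most 1306 CPM elsewhere in bulk. Several tumor libraries stood apart. Adipocyte markers summed to 14104, 1354 and 309 CPM in BP tumors 1, 2 and 3, against 87.03, 7.31 and 229 CPM in PBS tumors 1, 2 and 3, skeletal muscle markers reached 3467 CPM in BP tumor 2, and neutrophil markers reached 19638 CPM in PBS tumor 1. Transcripts of the mitochondrial genome took 19.5%, 8.33% and 3.97% of counts in BP tumors 1, 2 and 3, against 4.06%, 3.06% and 3.06% in the PBS tumors. In lymph node, plasma cell markers reached 10253 CPM in BP mouse 1, and mitochondrial transcripts 28.6% in PBS mouse 2. In the nanoparticle-associated liver libraries 48.2% to 57.2% of counts were mitochondrial, against 5.67% to 7.06% in the matching bulk livers.

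Promoters of several of the genes hold the element through which ATF6 and XBP1 are known to act. The ER stress element (ERSE: CCAAT, 9 bases of any kind, then CCACG, on either strand) was searched in RefSeq promoter windows of build GRCm38.p6, from 250 bases before to 50 bases after the gene start, together with ERSE-II (ATTGG, any base, then CCACG), the UPRE (TGACGTGG) and a CARE, the element bound by ATF4 and its partners (TGATGCAA). Windows were held for 33 of the 38 genes; Atf6, Derl1, Hyou1, Manf and Sec61a1 had none. ERSE occurred in 9 of these 33 genes, which is 27.3%, and in 0.119% of all 32851 windows: Hspa5, Hsp90b1, Calr, Canx, Creld2, Dnajc3, Derl3, Pdia6 and Syvn1. ERSE-II occurred in Herpud1 and Dnajb11, and in 0.0365% of windows. CARE occurred in Chac1 and Herpud1, 6.06% of the genes, and in 0.895% of windows, while UPRE occurred in none of the 33 genes and in 0.676% of windows. No hit overlapped another. Members were counted by gene over any of their windows and the background by window, so these shares are in unlike units and were not tested against each other. The stretches shown belong to genes that recur in the results, Hspa5, Calr, Creld2, Derl3 and Pdia6 in the tumor and Herpud1 and Chac1 in the nanoparticle-associated cells; they run 5′ to 3′ on the strand of the gene, and capitals mark the fixed letters of the motif. Where an ERSE lies on the other strand these read CGTGG and ATTGG, and a CARE on the other strand reads TTGCATCA.
Hspa5 (chr2:34772017-34772051, plus strand): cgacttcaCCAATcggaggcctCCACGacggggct
Calr (chr8:84847067-84847101, minus strand): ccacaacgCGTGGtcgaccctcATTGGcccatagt
Creld2 (chr15:88819512-88819546, plus strand): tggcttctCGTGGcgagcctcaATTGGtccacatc
Derl3 (chr10:75893234-75893268, plus strand): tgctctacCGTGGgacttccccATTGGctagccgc
Pdia6 (chr12:17266483-17266517, plus strand): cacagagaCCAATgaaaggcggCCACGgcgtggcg
Herpud1 (chr8:94386309-94386395, plus strand): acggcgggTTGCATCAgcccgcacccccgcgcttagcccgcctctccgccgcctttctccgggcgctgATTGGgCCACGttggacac
Chac1 (chr2:119351041-119351064, plus strand): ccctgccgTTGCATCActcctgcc
Distances are counted from the RefSeq start on which each window is built, which can differ from the GENCODE gene start given elsewhere and in Hspa5 lies downstream of it. In Hspa5 the ERSE runs from 65 to 47 bases before the RefSeq start, and in Herpud1 the CARE lies 112 to 105 and the ERSE-II 52 to 42 bases before it. These are matches of letters and not measured binding sites.

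In PBS mice, with all libraries on 1 TMM scale, the ER genes were highest in liver and next in the tumor, and lowest in spleen and lymph node. The order of liver and tumor depends on this scaling. As a share of library counts the 38 genes took 1.45%, 1.25% and 0.994% in PBS tumors 1, 2 and 3. In PBS livers 1, 2 and 3 they took less, 0.863%, 0.765% and 0.884%. Liver held the highest mean for 28 of the 38 genes and the tumor for 6, namely Xbp1, Pdia3, Atf4, Srprb, Derl3 and Trib3; spleen was lowest for 13 and lymph node for 12. Per kilobase of exon, the median gene stood at 52.0 CPM in liver, 27.3 CPM in tumor, 24.4 CPM in marrow, 23.4 CPM in lung, 21.1 CPM in spleen and 16.7 CPM in lymph node. Highest and lowest organ means differed by at least 2-fold for 36 genes, as they did for 89.3% of all 17696 genes tested in these libraries. For 20 genes the libraries of the top organ lay clear of those of the second, as for 47.2% of all genes, and for the other 18 the top 2 organs overlapped. Both shares are near those of all genes and are not results about the members.

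**Figure D1:**
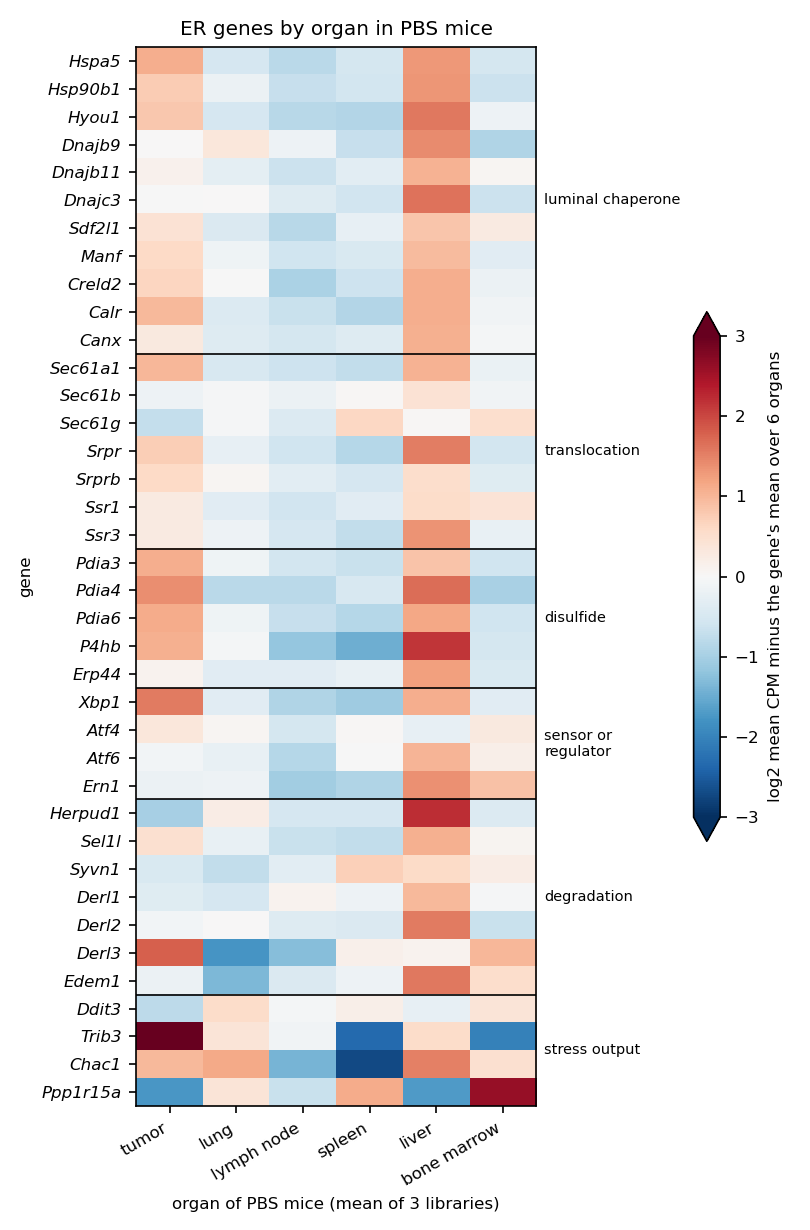
Mean level of each of the 38 genes in 6 organs of PBS mice (n = 3 libraries per organ), as log2 mean CPM minus the mean of that gene's 6 organ values, with genes grouped by role; the colour scale stops at 3 in each direction. On this scale most rows are reddest in liver, with tumor next for chaperones and disulfide isomerases, while Trib3 is highest in tumor and Ppp1r15a in marrow. The order of liver and tumor depends on the scaling.

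Among the tumor's high genes, Hspa5, which encodes BiP, the central ER chaperone (ENSMUSG00000026864, chr2:34771970-34777547, plus strand), averaged 1359 ± 340.2 CPM in PBS tumor, 1557 ± 345 in liver, 447 ± 107 in lung, 443 ± 35.96 in marrow, 438 ± 138 in spleen and 362 ± 25.2 in lymph node (SD, n = 3 each, all libraries on 1 scale). Tumor and liver overlapped, and both lay above the other organs. Xbp1, the transcription factor that IRE1 activates by splicing its mRNA, averaged 445 ± 64.9 CPM in tumor, clear of 323 ± 29.1 CPM in liver and 72.3 ± 13.7 CPM in spleen; counts per gene do not separate its spliced form. Trib3, a pseudokinase induced by ATF4 and CHOP, averaged 56.2 ± 10.1 CPM in tumor, against 7.25 ± 1.65 CPM in liver and 0.977 ± 0.479 CPM in spleen. Derl3, an ER-associated degradation gene known from plasma cells, averaged 13.6 ± 6.70 CPM in tumor, and its libraries overlapped those of marrow at 7.78 ± 2.02 CPM. Ppp1r15a, the phosphatase subunit GADD34 that releases the translation brake, had the opposite order, with 11.9 ± 1.59 CPM in tumor, 12.4 ± 2.22 CPM in liver, 51.999 ± 5.64 CPM in lung, 86.5 ± 23.8 CPM in spleen and 246 ± 9.60 CPM in marrow. Ddit3, which encodes CHOP, was lowest in tumor at 8.11 ± 1.01 CPM and highest in lung at 20.4 ± 5.44 CPM.

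Tested over the 18 PBS bulk libraries with edgeR's quasi-likelihood test, with p-values adjusted by Benjamini-Hochberg over all genes and a threshold of 0.05, 21 of the 38 genes were higher and 4 lower in the tumor than in the mean of the other 5 organs. Of all 17696 genes tested in that contrast, 50.7% passed, 28.1% higher and 22.6% lower. By role, 6 of 11 luminal chaperones, 5 of 7 translocation genes and 4 of 5 disulfide isomerases were higher in the tumor, and no chaperone or isomerase was lower. The largest differences were Trib3 with a log2 difference of 4.27 (SE 0.23, adjusted p = 2.69e-10, edgeR), Derl3 with 2.21, Xbp1 with 1.92 and Pdia4, a disulfide isomerase, with 1.73. Lower in the tumor were Ppp1r15a by a log2 difference of -2.04, Herpud1, a degradation scaffold, by -1.14, Ddit3 by -0.89 and Sec61g, a channel subunit, by -0.79. The Sec61g call did not hold with the mouse as a block (edgeR adjusted p = 0.0538). Scaling by library totals moved the median gene from 0.01 to 0.22 in this contrast. It gave 25 members higher and 3 lower (5862 and 3131 of all 17696 genes). Of the 103 other ER and stress response genes on companion lists, 65 were higher and 6 lower in the tumor, led by Fkbp11, an ER prolyl isomerase, with 4.33, and Kdelr3, a receptor that returns chaperones to the ER, with 2.98.

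Liver stood above the mean of the other 5 organs for 33 genes and below it for Ppp1r15a alone, with a median log2 difference of 1.31, against -0.37 for all genes tested, of which 64.3% passed, 29.0% higher and 35.3% lower. Herpud1 led with 2.66 (SE 0.18), followed by P4hb, the main protein disulfide isomerase, with 2.59, Pdia4 with 2.01 and Dnajc3, a BiP co-chaperone, with 1.96. Hspa5 was 1.56 higher (adjusted p = 3.53e-06, edgeR), Xbp1 was 1.33 higher (adjusted p = 5.2e-07, edgeR), and Ppp1r15a was lower by a log2 difference of -2.02. These counts depend on the scaling: with library totals the median of all genes moved to -1.38, and 13 members were higher and 4 lower. Of all 17696 genes 2526 were then higher and 10863 lower, and Xbp1 no longer passed (edgeR adjusted p = 0.0729).

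In bulk tumor, no ER gene passed the test between BP and PBS mice, yet most had lower levels in the BP tumors. Of the 38 genes 32 had a lower fitted level and 6 a higher one, with a median log2 fold change of -0.38, against -0.05 for all 14535 genes tested. In edgeR no gene of any kind passed in this comparison (0.0%). At an unadjusted p under 0.05 there were 9 of the 38 genes, against 5.96% of all genes. DESeq2 called 0 of the 38, and 138 of all 14535 genes, 128 higher and 10 lower in BP tumors. The number of members at an unadjusted p under 0.05 was 2 without PBS tumor 3 (657 of all 15118 genes). It was 3 without BP tumor 1 (408 of 14874) and 4 without PBS tumor 2 (501 of 15080). It was 5 without BP tumor 3 (1661 of 15049), 6 without BP tumor 2 (696 of 14957) and 8 without PBS tumor 1 (1603 of 15054). With library totals it was 4 (767 of 14535). The groups did not overlap for 14 genes: 13 were lower in all BP tumors than in any PBS tumor and 1, Ddit3, was higher, while 5.15% of all genes were separated downward and 5.66% upward. In bulk RNA, fewer cells of a type and less RNA per cell cannot be told apart.

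Of the 13 genes separated downward 5 were luminal chaperones or co-chaperones: Hspa5, Hyou1, Calr, Creld2 and Manf. Hspa5 measured 754, 1164 and 1173 CPM in BP tumors 1, 2 and 3, against 1706, 2010.2 and 1187 CPM in PBS tumors 1, 2 and 3, a log2 fold change of -0.67 (SE 0.37, adjusted p = 0.799, edgeR). The groups were separated, with BP tumor 3 close to PBS tumor 3. Hyou1, the nucleotide exchange factor of BiP (ENSMUSG00000032115, chr9:44379490-44392369, plus strand), measured 107, 81.8 and 146 CPM in BP tumors, against 263, 191 and 218 CPM in PBS tumors, a log2 fold change of -1.0 (SE 0.30, unadjusted p = 0.0122 and adjusted p = 0.797, edgeR). Calr, a lectin chaperone that holds calcium in the ER (ENSMUSG00000003814, chr8:84841850-84846934, minus strand), measured 729, 765 and 869 CPM in BP tumors, against 1724, 1280.2 and 1061 CPM in PBS tumors. Both genes were lower in each BP tumor than in any PBS tumor, and PBS tumor 1, the neutrophil-rich library, was the highest for each. Creld2 and Manf, ER proteins known to be induced by ER stress, averaged 48.03 ± 12.6 and 133 ± 15.3 CPM in BP tumors, against 82.2 ± 9.06 and 200.4 ± 37.5 CPM in PBS tumors (SD, n = 3 each). The chaperones Hsp90b1, Canx, Dnajb11, Dnajc3 and Sdf2l1 had log2 fold changes of -0.47, -0.21, -0.35, -0.21 and -0.64 with overlapping groups, and Dnajb9, a co-chaperone that restrains IRE1, was the only chaperone with a positive value, 0.19.

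Pdia4 carried the largest difference among the disulfide isomerases, with 127, 250.2 and 224 CPM in BP tumors, against 337, 414 and 328 CPM in PBS tumors and a log2 fold change of -0.84 (SE 0.33, adjusted p = 0.797, edgeR). All 5 isomerases had lower means in BP tumors, but PBS tumor 1 was the highest library for P4hb, at 558, 784 and 631 CPM in BP and 1543, 902 and 779 CPM in PBS tumors, and for Pdia6, at 289, 431 and 358 CPM in BP and 887, 538 and 269 CPM in PBS tumors. Among the translocation genes, Sec61a1, the pore of the channel (ENSMUSG00000030082, chr6:88503579-88518905, minus strand), measured 195, 234 and 252 CPM in BP tumors, against 347, 379 and 435 CPM in PBS tumors. Srpr, the alpha subunit of the receptor for the signal recognition particle, measured 143, 87.99 and 125 CPM in BP tumors, against 155, 203 and 268 CPM in PBS tumors. For both, every BP tumor lay below every PBS tumor, with log2 fold changes of -0.77 and -0.81. The small channel subunits did not share this: Sec61b had a log2 fold change of -0.02, and Sec61g measured 91.6, 107 and 62.9 CPM in BP tumors, against 64.7, 50.7 and 52.9 CPM in PBS tumors, a log2 fold change of 0.64 with BP tumor 3 inside the PBS range.

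The regulators and outputs differed in sign. Xbp1 measured 782, 393 and 600.1 CPM in BP tumors, against 474, 506 and 625 CPM in PBS tumors, and the BP values spanned the PBS ones. Atf4 measured 161, 182 and 125 CPM in BP tumors, against 207, 239 and 212 CPM in PBS tumors, and the groups did not overlap. Trib3 measured 22.1, 42.3 and 33.6 CPM in BP tumors, against 72.5, 76.5 and 53.6 CPM in PBS tumors, with a log2 fold change of -1.05 (SE 0.30, unadjusted p = 0.0106, edgeR). Ddit3, whose product CHOP is linked to apoptosis, ran the other way, with 16.6, 21.8 and 11.7 CPM in BP tumors, against 10.9, 8.83 and 9.43 CPM in PBS tumors, and a log2 fold change of 0.78 (SE 0.35, adjusted p = 0.797, edgeR). Degradation genes were mixed: Edem1, which steers misfolded glycoproteins to disposal, measured 68.2, 66.5 and 68.9 CPM in BP tumors, against 84.9, 108 and 138 CPM in PBS tumors, Derl3 measured 4.80, 9.45 and 8.84 CPM, against 8.04, 16.8 and 24.3 CPM, with overlap, and Derl1 and Derl2 had small positive values.

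**Figure D2:**
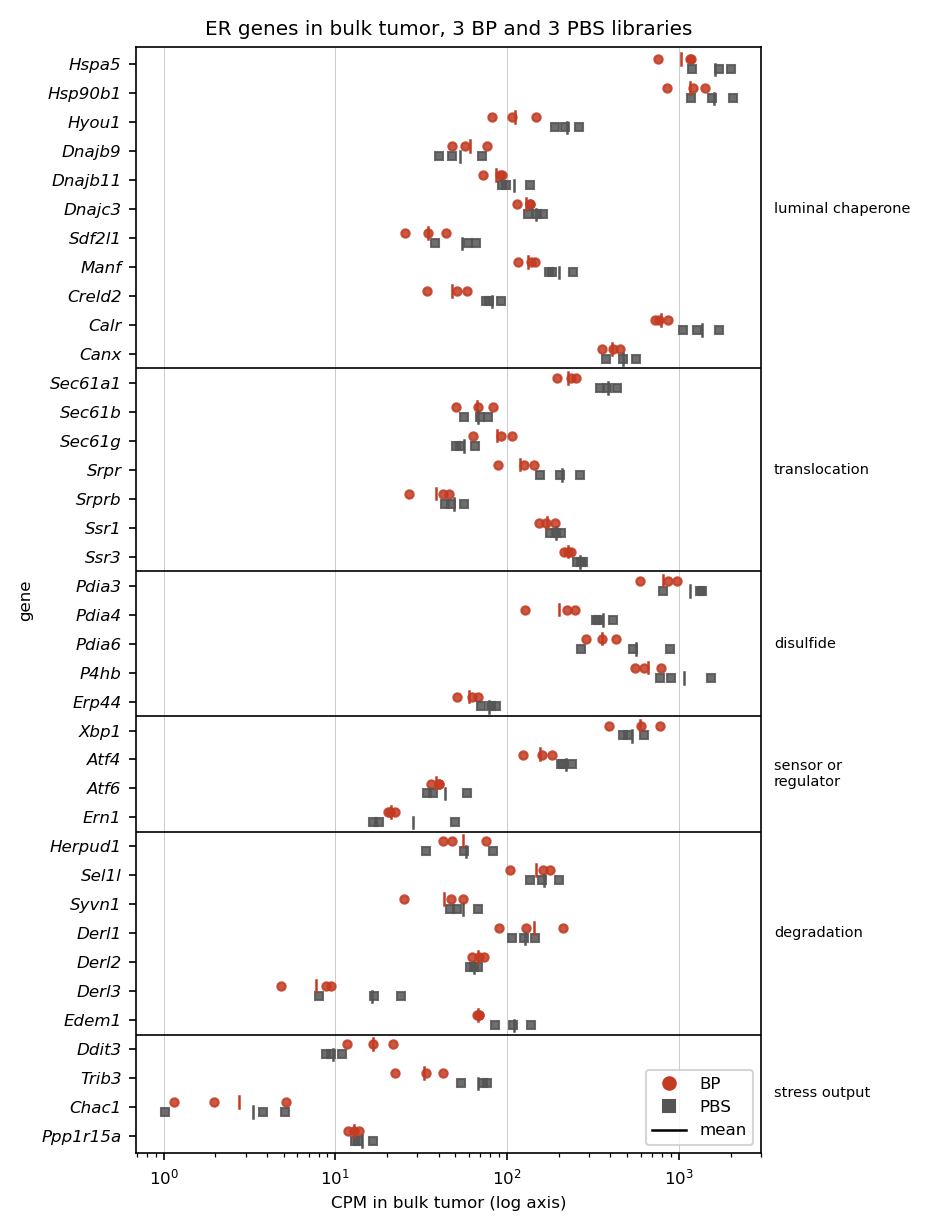
CPM of the 38 genes in 3 BP bulk tumors (red circles, upper row of each gene) and 3 PBS bulk tumors (grey squares, lower row), on a log axis with vertical bars at the group means. For 13 genes, among them Hyou1, Calr, Sec61a1, Srpr and Trib3, all red circles lie left of all grey squares, and Ddit3 shows the reverse.

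When any of the 6 tumor libraries was left out, 29 to 34 genes had a negative value and 0 of the 38 were called. Estimating the spread over 48 libraries of all 16 replicated groups called 6, all lower in BP tumors: Calr, Hyou1, P4hb, Pdia4, Sec61a1 and Srpr. In that setting 1482 of all 18954 genes passed, 1144 higher and 338 lower in BP tumors. With the tumor's own spread edgeR called none of all 14535 genes, and DESeq2 called 138, 128 higher and 10 lower. Over 13 settings, 26 genes stayed negative in each and 2 positive in each. Markers of other cell types moved with these differences. All 8 adipocyte markers had positive log2 fold changes and none passed, and their sums, given above, did not overlap between the groups. Endothelium markers summed to 197, 66.03 and 41.9 CPM in BP tumors 1, 2 and 3, against 40.3, 12.99 and 27.8 CPM in PBS tumors, and B cell markers to 18.7, 16.6 and 3.42 CPM in BP tumors, against 3.30, 2.10 and 2.16 CPM in PBS tumors, again without overlap. Every endothelium, B cell, fibroblast, T cell and macrophage marker tested had a positive value, 5, 5, 6, 4 and 9 of them, and none passed. The mitochondrial share was higher in BP tumors 1 and 2 than in any PBS tumor, muscle markers were high in BP tumor 2 alone and neutrophil markers were highest in PBS tumor 1. The part of these markers and shares in the ER differences was not tested. Summed tumor epithelium markers were 12287, 11757 and 17451 CPM in BP tumors, against 15948, 11456 and 15369.8 CPM in PBS tumors, and overlapped. Taken singly, 8 of these 10 markers had negative log2 fold changes and 2 positive ones, with a median of -0.15, and none passed. Their part was not tested either. Of the 103 companion ER genes, 79 were lower and 24 higher in BP tumors, with a median log2 fold change of -0.30, and none passed.

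Set against the other organs, the tumor differed for 7 genes in a fit that shared 1 spread per gene over the organs. The tumor's BP effect minus the mean BP effect of the other 5 organs was tested in the 36 bulk libraries, and passed for Hyou1, Pdia4, Calr, Srpr, Sec61a1, Edem1 and Atf4, all with a lower difference, and for none in the other direction. Of all 18613 genes tested 4.06% passed, 3.21% upward and 0.854% downward. The common spread of that fit, edgeR's biological coefficient of variation, was 0.338. Fitted alone, tumor had 0.513 and the other organs 0.150 to 0.381. The tumor's larger spread thus counts only in part, and in tumor alone no member passed. Hyou1 had log2 fold changes between BP and PBS of -1.0 in tumor, 0.11 in lung, 0.02 in lymph node, 0.20 in spleen, 0.11 in liver and 0.17 in marrow, and a difference of -1.16 (SE 0.25, adjusted p = 0.00826, edgeR). Differences of this kind were -1.03 for Pdia4 (adjusted p = 0.0166, edgeR), -0.96 for Calr (0.0264), -0.93 for Srpr (0.0041), -0.90 for Sec61a1 (0.00469), -0.90 for Edem1 (0.0339) and -0.59 for Atf4 (0.0444). Hspa5, at -0.91, did not pass (adjusted p = 0.072, edgeR), nor did Xbp1 at -0.08 (adjusted p = 1, edgeR) or Ddit3 at 0.66 (adjusted p = 0.122, edgeR). Over all 38 genes the median difference was -0.52, with 34 of them negative, while the median of all genes lay at 0.00. From the companion lists 5 of 103 passed, all negative, among them Eif2ak3, which encodes the sensor PERK, at -0.93, Sec24d, a coat protein of ER export, at -0.77, and Stt3a, an oligosaccharyl transferase subunit, at -0.75. Marker genes passed upward in this same contrast, 4 of 6 for endothelium, 4 of 6 for B cells, 2 of 8 for adipocytes, 1 of 6 for fibroblasts and 1 of 6 for skeletal muscle, none downward, and all the others tested from these lists had positive values; their part in the ER calls was not tested.

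These calls rest on individual mice. Without PBS mouse 2 no member passed (36 of all 19040 genes did), and without BP mouse 1 only Srpr did (70 of 19009). Without PBS mouse 3 only Hyou1 passed (146 of 19047), and 3 members passed without BP mouse 2 (385 of 18994). Without BP mouse 3 there were 6 (1519 of 18970), and without PBS mouse 1 there were 6 (1686 of 18805), with Ddit3 positive among them. The number of members passing thus moved with the number of all genes passing. Leaving out a tumor library while keeping that mouse's other organs was a choice made after seeing the data. It gave 2 without BP tumor 1 (157 of all 19152 genes), 6 without BP tumor 2 (728 of 19119) and 8 without BP tumor 3 (2070 of 19119). It gave 6 without PBS tumor 1 (1451 of 19145), 3 without PBS tumor 2 (258 of 19132) and 7 without PBS tumor 3 (634 of 19149). With the mouse as a block 5 passed (575 of 18613), Atf4 and Edem1 dropping out.

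Outside the tumor the median log2 fold change of these genes lay between -0.03 and 0.17, and no member passed in lung, lymph node, spleen, liver or marrow. In edgeR 0 of the 38 genes (37 tested in lymph node and spleen, where Chac1 was too low) passed in each of these organs. At an unadjusted p under 0.05 there were 4 members in lymph node and 0 elsewhere. Of all genes edgeR passed 0.0% in lung, lymph node, spleen and marrow and 0.0235% in liver. Its unadjusted p-values under 0.05 numbered 0.872% of genes in lung, 3.61% in lymph node, 0.711% in spleen, 3.56% in liver and 1.32% in marrow. DESeq2 likewise called 0 members. It called 11 of all 15341 genes in lymph node, 37 of 12740 in liver, 4 of 13969 in marrow and 0 in lung and spleen. In spleen Hspa5 measured 708, 656 and 620.1 CPM in BP mice, against 342, 639.7 and 667 CPM in PBS mice, of which PBS mouse 1 was far the lowest. Lung showed the same mouse low, with 643, 689 and 656 CPM for Hspa5 in BP mice, against 419, 693 and 630.3 CPM in PBS mice. Accordingly 35 of 38 genes were higher in BP lung, but 24 without PBS lung 1, and 30 of 37 were higher in BP spleen, but 19 without PBS spleen 1. In liver Hspa5 measured 819, 1099.7 and 1303 CPM in BP mice, against 887, 776 and 1175 CPM in PBS mice, and 16 of 38 genes were higher. Marrow values were close, with 483, 491 and 497 CPM for Hspa5 in BP mice, against 405, 461 and 475 CPM in PBS mice, a separation with a log2 fold change of 0.13, and 28 of 38 genes were higher. Xbp1 had log2 fold changes of 0.20 in lung, 0.28 in spleen, -0.10 in liver and -0.02 in marrow, and Ddit3 had 0.23, -0.06, -0.07 and -0.05 in the same organs, with overlapping groups for each.

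Lymph node had the widest positive values, in a mouse whose node also held the most plasma cell transcript. Derl3 measured 18.4, 2.57 and 3.46 CPM in BP mice 1, 2 and 3, against 1.84, 1.19 and 2.82 CPM in PBS mice, a log2 fold change of 2.05 (SE 0.81, adjusted p = 0.866, edgeR). Creld2 measured 69.3, 50.04 and 33.4 CPM in BP mice, against 22.7, 26.8 and 33.3 CPM in PBS mice, and Sdf2l1, a partner of BiP co-chaperones, measured 46.6, 42.1 and 25.7 CPM, against 21.4, 20.8 and 26.5 CPM. BP mouse 1 was the highest for each of the 3 genes. Xbp1 followed with 210.1, 81.5 and 110.2 CPM in BP mice, against 78.1, 104 and 113 CPM in PBS mice. Plasma cell markers summed to 10253, 1507 and 1069 CPM in BP mice 1, 2 and 3, against 1186, 910.5 and 845 CPM in PBS mice, and their part in these values was not tested. Of 37 genes 31 were higher in BP lymph node, and 24 without BP mouse 1.

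**Figure D3:**
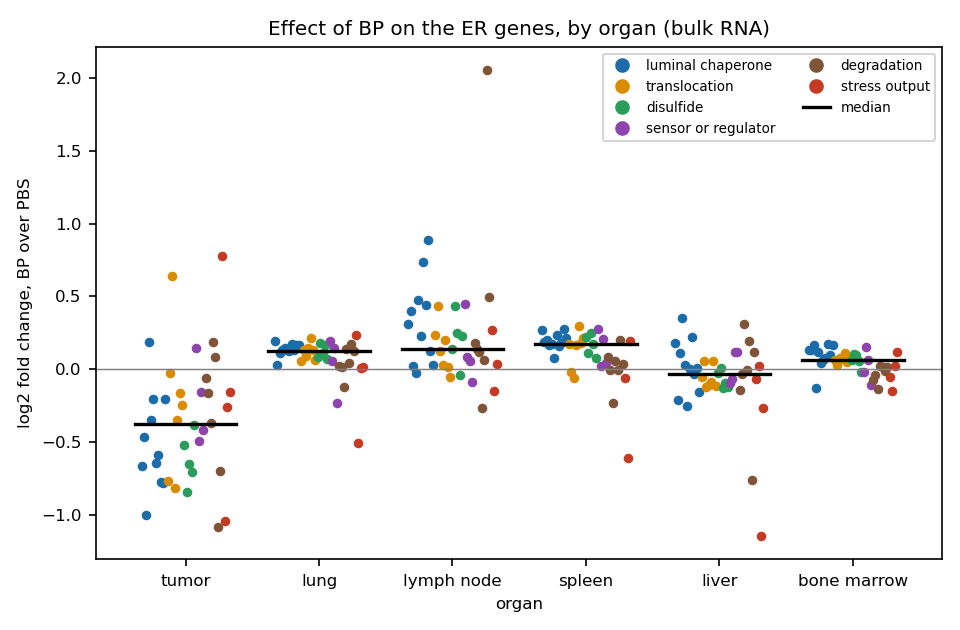
Log2 fold change of bulk RNA, BP over PBS (n = 3 mice each), for each of the 38 genes in 6 organs, coloured by role, with a black bar at the median of the genes tested. Tumor has its median at -0.38 and 32 genes below 0, while the medians of the other organs lie between -0.03 and 0.17; the point near 2 in lymph node is Derl3.

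In the nanoparticle-associated cells Atf4 and the stress outputs Ddit3 and Ppp1r15a rose in each organ tested, although Atf4 and Ddit3 did not pass in liver when scaled by library totals. Against bulk RNA of the same organ in the same mice, Atf4, Ddit3 and Ppp1r15a rose in tumor, spleen, liver and marrow, Chac1 and Dnajb9 rose in 3 of the 4 organs, and Hspa5, Ern1, Herpud1 and Trib3 in 2. Sec61b fell in 3 organs and Manf in 2, 9 genes rose in at least 1 organ and fell in another, and Hsp90b1, Canx, Dnajb11, Creld2, Pdia3, Pdia6 and Derl3 passed in none. Of the 11598 genes tested in all 4 organs, which include 37 members, 1.53% rose in 4, 3.68% in 3 and 10.2% in 2, 1.4% fell in 3 and 11% in 2, 13.1% rose in an organ and fell in another, and 14.3% passed in none. The separated cells had been digested and magnetically separated and the bulk tissue had not. A list of 10 genes known to respond to tissue digestion rose for 9 members in tumor and 10 in each of spleen, liver and marrow. Its summed level was 5987, 7383 and 4455 CPM in tumor cells 1, 2 and 3, against 329, 413 and 471 CPM in bulk tumor, and 3135 to 10095, 17157 to 20513 and 1205 to 1229.99 CPM in separated spleen, liver and marrow cells, against 175 to 215, 162 to 247 and 152 to 224 CPM in bulk. Its part in the ER results was not tested, and handling, nanoparticle content and cell type cannot be told apart in this design.

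**Figure D4:**
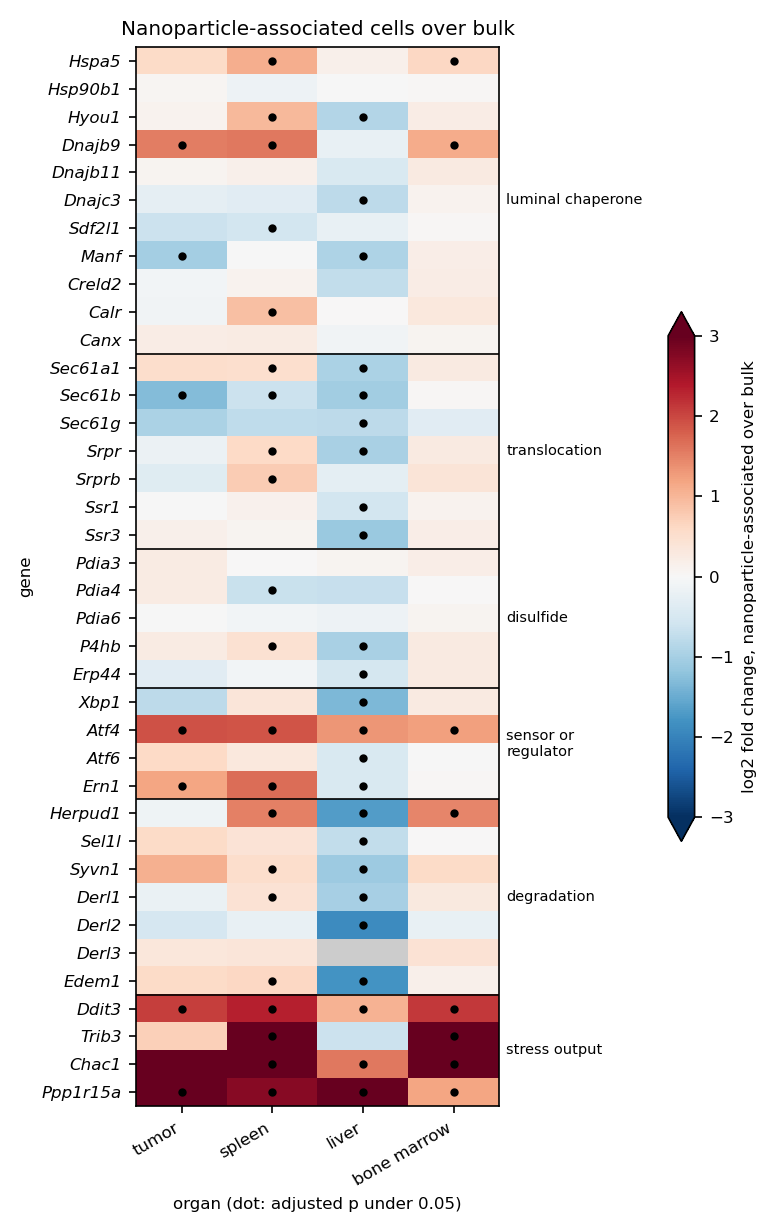
Log2 fold change of nanoparticle-associated cells over bulk RNA of the same organ (n = 3 BP mice each) for the 38 genes, grouped by role, with a black dot where the adjusted p is under 0.05; the colour scale stops at 3 in each direction and grey marks a gene too low to test. Atf4, Ddit3 and Ppp1r15a carry dots in all 4 organs, and the liver column is blue for translocation and degradation genes.

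In tumor 5 of the 38 genes rose and 2 fell in the nanoparticle-associated cells, 9.04% of all 14615 genes passing (5.87% up and 3.17% down). Ppp1r15a (ENSMUSG00000040435, chr7:45522916-45526268, minus strand) measured 185, 204 and 151 CPM in separated tumor cells, against 12.3, 13.1 and 11.7 CPM in bulk tumor, a log2 fold change of 3.87 (SE 0.22, adjusted p = 0.00191, edgeR). Atf4 measured 587, 776 and 331 CPM in separated cells, against 153, 173 and 122 CPM in bulk (log2 fold change 1.92, adjusted p = 0.0294, edgeR). Ddit3 measured 72.7, 91.9 and 36.99 CPM in separated cells, against 15.8, 20.7 and 11.4 CPM in bulk (log2 fold change 2.08, adjusted p = 0.0314, edgeR). All 3 genes were separated between the groups, and mouse 3 had the lowest separated value for each. Dnajb9 rose by a log2 fold change of 1.53, with 172, 179 and 151 CPM in separated cells, against 72.9, 45.5 and 55.7 CPM in bulk. Ern1 measured 39.6, 60.3 and 38.1 CPM in separated cells, against 21.1, 19.6 and 19.97 CPM in bulk, and passed (adjusted p = 0.0349, edgeR). Sec61b and Manf fell, by log2 fold changes of -1.30 and -1.03: Sec61b measured 28.9, 24.8 and 24.4 CPM in separated cells, against 78.9, 63.9 and 49.3 CPM in bulk.

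The tumor's BiP and XBP1 genes did not pass. Hspa5 measured 1467, 1767 and 1172 CPM in separated tumor cells, against 717, 1105 and 1149 CPM in bulk (log2 fold change 0.57, adjusted p = 0.235, edgeR), and Xbp1 measured 337, 319.9 and 331 CPM, against 744, 373 and 588 CPM (log2 fold change -0.79, adjusted p = 0.115, edgeR). Separated Hspa5 values were each above, and separated Xbp1 values each below, all bulk values. Trib3, already high in bulk tumor, measured 59.4, 57.7 and 38.5 CPM in separated cells, against 21.03, 40.2 and 32.9 CPM in bulk, with overlap (adjusted p = 0.15, edgeR). The tumor calls rest on single libraries. Only 1 gene, Ppp1r15a, passed without separated library 1 (20 of all 15316 genes), without separated library 2 (51 of 15412) or without bulk library 2 (265 of 15235). Without separated library 3 (211 of 15210) or bulk library 1 (426 of 15094) 3 passed, and 7 without bulk library 3 (1935 of 15155). With the mouse as a block 6 passed (625 of all 14615 genes), losing Ern1 and Manf and gaining Chac1, while DESeq2 called 11 (3303 of 14615). Epithelial markers summed to 16913, 15971 and 14884 CPM in separated cells, against 12287, 11757 and 17451 CPM in bulk, and macrophage markers to 164, 163 and 136 CPM, against 382, 441 and 326 CPM, 5 of 8 falling; adipocyte markers summed to 43.9, 31.2 and 37.98 CPM in separated cells, against 14104, 1354 and 309 CPM in bulk, 6 of 7 falling. The part of these markers was not tested. Among companion genes 6 of 103 rose and 1 fell: Atf3, a stress factor that is also on the digestion list, by 4.84, Ddit4, a stress-induced inhibitor of mTOR, by 2.46, and Ero1l, the ER oxidase, by 1.97, with Spcs3, a signal peptidase subunit, at -1.26.

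In spleen 18 genes rose and 3 fell, where 42.2% of all genes passed, 20.2% up and 22% down. All 4 stress outputs rose, Chac1 and Trib3 from very low bulk levels. Chac1, which degrades glutathione, measured 71.5, 31.9 and 30.9 CPM in separated spleen cells, against 0.42, 0.441 and 0.342 CPM in bulk spleen, and Trib3 measured 58.3, 33.4 and 37.3 CPM, against 0.756, 0.661 and 0.821 CPM. Ddit3 measured 87.9, 94.1 and 84.96 CPM in separated cells, against 16.6, 17.5 and 19.1 CPM in bulk, a log2 fold change of 2.33 (SE 0.12, adjusted p = 0.000173, edgeR). Ppp1r15a measured 392, 1102 and 839 CPM, against 32.9, 212 and 106 CPM, and lost its call without separated library 3 or bulk library 3 (edgeR adjusted p up to 0.0679). Atf4 averaged 647 ± 103 CPM in separated cells and 176 ± 25.6 CPM in bulk (SD, n = 3 each).

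BiP, the chief chaperone, rose in spleen as well. Hspa5 measured 1385, 1363 and 1259 CPM in separated spleen cells, against 669, 619 and 585 CPM in bulk, a log2 fold change of 1.10 (SE 0.12, adjusted p = 0.000974, edgeR); whether tumor and spleen differ for this gene alone was not tested. Hyou1 rose by 0.98, Calr by 0.90, Dnajb9 by 1.58, Ern1 by 1.68 and Herpud1 by 1.51 on the log2 scale, and the receptor and channel genes Srprb, Srpr and Sec61a1 by 0.77, 0.60 and 0.51. Pdia4, Sec61b and Sdf2l1 fell, by log2 fold changes of -0.66, -0.64 and -0.54. Pdia4 measured 72.6, 51.9 and 71.4 CPM in separated cells, against 117, 92.7 and 101 CPM in bulk; it lost its call without bulk library 1 or 3, and Sdf2l1 without any of 5 of the 6 libraries. Xbp1 measured 171, 104 and 123 CPM in separated cells, against 119.5, 95.02 and 96.5 CPM in bulk, and passed only with the mouse as a block (adjusted p = 0.0378, edgeR, against 0.207 without it). Of 102 companion genes tested 33 rose and 16 fell, among them Slc7a11, the cystine importer, by 3.73, and Sesn2, a stress-induced regulator of mTOR, by 3.04, both ATF4 targets. Plasma cell markers were 11572, 5745 and 7629 CPM in separated spleen cells, against 6938, 4061 and 4698 CPM in bulk, highest in mouse 1 in each fraction, with 3 of 12 rising and 4 falling. Of other markers 4 of 10 rose for neutrophils and 3 of 6 for endothelium, and 4 of 6 fell for each of T cells, B cells and fibroblasts; the part of all these was not tested. With library totals the median of all genes moved from -0.04 to -0.21 and 13 members rose and 4 fell (2064 and 3775 of all 15026 genes).

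In marrow 8 genes rose and none fell, where 7.69% of all genes passed, 4.8% up and 2.9% down. Trib3 measured 14.6, 28.03 and 48.6 CPM in separated marrow cells, against 1.43, 0.933 and 0.918 CPM in bulk marrow, and Chac1 measured 26.7, 32.4 and 45.4 CPM, against 1.18, 2.27 and 2.48 CPM. Ddit3 measured 51.7, 73.2 and 107 CPM in separated cells, against 15.1, 18.4 and 19.6 CPM in bulk, a log2 fold change of 2.12 (SE 0.26, adjusted p = 0.00304, edgeR). For each of the 3 genes every separated library was above every bulk one, and mouse 3 was the highest. Herpud1, which carries both a CARE and an ERSE-II in its promoter window, measured 189, 168 and 208 CPM in separated cells, against 73.8, 50.4 and 79.3 CPM in bulk. Hspa5 measured 726, 768 and 748 CPM in separated cells, against 481, 488 and 492 CPM in bulk, a log2 fold change of 0.62 (adjusted p = 0.00773, edgeR) that lost its call without bulk library 2. Atf4 rose by 1.24, Dnajb9 by 1.12 and Ppp1r15a by 1.18 on the log2 scale; the Ppp1r15a call was lost without any of 5 of the 6 libraries. With the mouse as a block 18 genes passed, 17 up and 1 down, where 2719 of all 13573 genes passed, 1594 up and 1125 down. The 10 added were Calr, Derl1, Dnajb11, Erp44, P4hb, Sec61a1, Sec61g, Srpr, Syvn1 and Xbp1. Xbp1 measured 146, 139 and 144 CPM in separated cells, against 116, 121 and 118 CPM in bulk (adjusted p = 0.0350 with the block and 0.101 without, edgeR). Companion genes gave 8 rises among 101, with Atf3 at 4.05, Slc7a11 at 3.92 and Ddit4 at 2.77. Plasma cell markers summed to 6461, 7664 and 7939 CPM in separated marrow cells, against 4060.2, 5337 and 5544 CPM in bulk marrow, without overlap, and 2 of 12 rose; their part in the ER results was not tested.

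**Figure D5:**
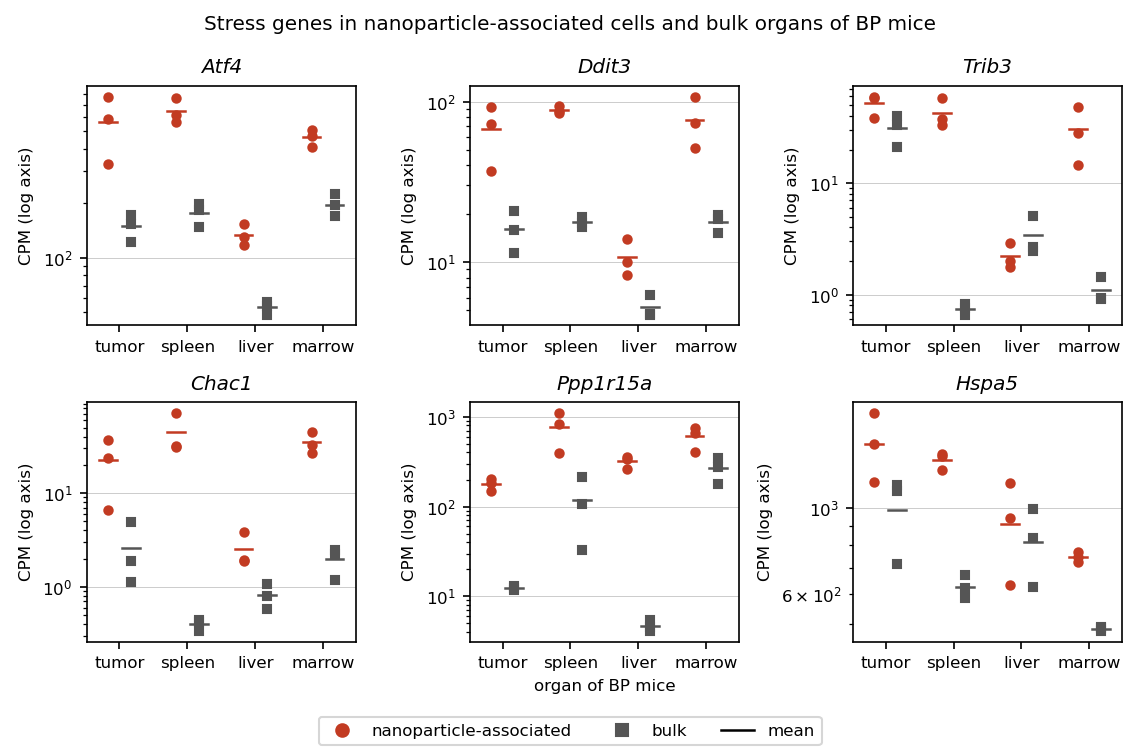
CPM of 5 stress genes and Hspa5 in nanoparticle-associated cells (red circles, left) and bulk RNA (grey squares, right) of tumor, spleen, liver and marrow from 3 BP mice, on log axes, with bars at the means. Atf4, Ddit3 and Ppp1r15a have separated values above all bulk values in each of the 4 organs, and Trib3 overlaps in tumor and liver.

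Liver gave the opposite balance, with 4 genes up and 20 down of 37 tested (Derl3 was too low to test), where 74.8% of all genes passed, 37.3% up and 37.5% down. Ppp1r15a measured 264, 342 and 352 CPM in separated liver cells, against 4.56, 5.50 and 4.15 CPM in bulk liver, a log2 fold change of 6.07 (SE 0.21, adjusted p = 1.53e-07, edgeR). Atf4 measured 118, 154 and 129.6 CPM in separated cells, against 54.3, 48.4 and 57.1 CPM in bulk, Ddit3 measured 10.001, 13.9 and 8.31 CPM, against 4.74, 6.22 and 4.70 CPM, and Chac1 measured 1.88, 1.93 and 3.83 CPM, against 0.578, 1.08 and 0.793 CPM. Each separated value of these 4 genes was above every bulk value. All 6 degradation genes tested fell, Derl2, a retrotranslocation channel component, most: 22.4, 25.4 and 23.6 CPM in separated cells, against 78.3, 84.03 and 101 CPM in bulk, a log2 fold change of -1.88 (SE 0.14, adjusted p = 2.4e-06, edgeR). Edem1 fell by a log2 fold change of -1.78 and Herpud1 by -1.67, with 56.1, 57.7 and 60.6 CPM for Herpud1 in separated cells, against 168, 165 and 220.3 CPM in bulk. Xbp1 measured 49.9, 58.8 and 55.4 CPM in separated cells, against 135, 140.2 and 144 CPM in bulk, a log2 fold change of -1.36 (adjusted p = 9.29e-06, edgeR). Of the 7 translocation genes 6 fell, with Ssr3, a translocon-associated subunit, at -1.12, and Srprb did not pass at -0.29. Among the luminal chaperones Hyou1, Dnajc3 and Manf fell, and Hspa5, Hsp90b1, Calr, Canx, Dnajb9, Dnajb11, Sdf2l1 and Creld2 did not pass. Among the disulfide isomerases P4hb and Erp44 fell, and Pdia3, Pdia4 and Pdia6 did not pass. Hspa5 measured 632, 1159.95 and 941 CPM in separated cells, against 625, 837 and 995 CPM in bulk (log2 fold change 0.15, adjusted p = 0.621, edgeR).

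Hepatocyte markers moved with these falls. Their sum was 24834, 79352 and 49593 CPM in separated liver cells, against 152262, 147814 and 186992 CPM in bulk liver, 8 of 9 fell and none rose, while macrophage markers summed to 4184, 2013 and 2433 CPM, against 1545, 1834 and 1313 CPM, 5 of 10 rising. Endothelium markers summed to 5096, 3494 and 4917 CPM in separated cells, against 299.9, 318 and 233 CPM in bulk, and all 6 rose. All 9 neutrophil, 6 T cell and 6 B cell markers tested rose as well, and 8 of 11 plasma cell markers. The part of these markers in the ER results was not tested. Directions in liver depend on scaling. With library totals the median log2 fold change of all genes moved from 0.01 to -0.80. Then 1 member, Ppp1r15a, rose and 33 fell, while 2681 of all 13247 genes rose and 6887 fell. Hspa5 turned to -0.73 (adjusted p = 0.00767, edgeR), and Atf4 (adjusted p = 0.121), Ddit3 (0.606) and Chac1 (0.144) no longer passed. Companion genes gave 12 rises and 60 falls among 101, with Atf3 at 6.54 and with Cth, which makes cysteine, at -4.06 and Atf5, a relative of ATF4, at -3.79.

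The lymph node had 1 nanoparticle-associated library, so no test was possible. Against the 3 bulk lymph nodes of BP mice, 18 of the 38 genes lay above all, 6 below all and 14 within the range. Of all 14414 genes with a mean of at least 1 CPM over these 4 libraries, 33.4% lay above all bulk nodes and 36.7% below all. Chac1 was 19.8 CPM in the separated library, against 0.592, 0.186 and 0.809 CPM in bulk nodes 1, 2 and 3. Ppp1r15a was 330.3 CPM, against 23.9, 26.3 and 29.4 CPM, and Trib3 was 32.6 CPM, against 3.603, 3.63 and 5.50 CPM. Atf4 was 440.7 CPM, against 101, 119 and 113 CPM, and Ddit3 was 58.5 CPM, against 15.5, 18.6 and 16.7 CPM. The stress outputs, Atf4, Hspa5 at 1082 CPM and Dnajb9 at 141 CPM were thus above every bulk node, while Dnajc3, Sdf2l1, Sec61b, Sec61g, Pdia4 and Erp44 were below every one. Digestion markers summed to 5478 CPM in this library, against 197, 317 and 306 CPM in bulk.

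The tumor's nanoparticle-associated effect differed from the mean of spleen, liver and marrow for 9 genes, 6 with a higher and 3 with a lower value, where 23.8% of all 17281 genes passed, 8.43% upward and 15.4% downward. The members' share is near that of all genes and is not a result about them. Trib3 was the largest, with log2 fold changes of separated over bulk of 0.72 in tumor, 5.83 in spleen, -0.65 in liver and 4.78 in marrow and a difference of -2.62 (SE 0.44, adjusted p = 0.000336, edgeR). Syvn1, the ubiquitin ligase of ER-associated degradation, had a difference of 1.06, Edem1 of 0.91, Dnajb9 of 0.70, Atf6 of 0.64, Sec61a1 of 0.56 and Ssr3 of 0.43. Of these, Syvn1, Edem1, Atf6, Sec61a1 and Ssr3 did not pass in tumor itself and fell in liver, Edem1 by -1.78. Syvn1, Edem1 and Sec61a1 rose in spleen. Dnajb9 rose in tumor, spleen and marrow. Manf and Sec61b had differences of -0.79 and -0.76. Hspa5 at -0.07 (adjusted p = 0.907, edgeR), Xbp1 at -0.54 (0.0711) and Ddit3 at 0.23 (0.684) did not pass. Leaving out BP mouse 1, 2 or 3 left 5 (1656 of all 17360 genes), 3 (2421 of 17427) and 4 (2243 of 17477) members past the threshold. Library totals moved the median of all genes from -0.12 to 0.18 and gave 8 members higher and 1 lower (1846 and 1592 of all 17281 genes). Markers of other cell types passed downward in this contrast, among them 5 of 6 for endothelium, 5 of 6 for B cells, 5 of 8 for adipocytes, 5 of 10 for macrophages and 8 of 12 for plasma cells, and their part was not tested.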

How the data were processed

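RNA was sequenced from 36 bulk and 13 nanoparticle-associated libraries. The deposited values are RSEM expected counts per gene; per the submitters' processing notes the tools named are FastQC 0.11.9, cutadapt 3.5, STAR 2.7.9a and RSEM 1.3.1, with build mm10. Whether counting used strand is not given in the sources used here. Of the exon length of Hsp90b1 10.3%, and of Sec61a1 8.16%, overlaps a gene on the opposite strand, so reads there could be shared. Over all libraries these neighbours held 2121 and 356 counts, against 558368 for Hsp90b1 and 117576 for Sec61a1. In Srprb 20.7% overlaps a gene on the same strand that held 0 counts. The human transgene is not in the mouse build and was not analysed here.

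The authors' expected counts were rounded and tested with edgeR 4.0.16 in R 4.3.3 (quasi-likelihood F-test, two-sided, scaled by TMM, genes kept by filterByExpr at min.count 10, Benjamini-Hochberg over all genes tested, threshold 0.05). CPM are scaled over the libraries of each comparison, and over all 49 libraries for organ levels and the lymph node. Totals of 9362264 to 19734849 counts set the precision. The steps were run on simulated counts with independent libraries and the same spread for every gene. That spread was smaller than the tumor's, so the simulation does not show how the tumor comparisons perform. Alternatives were DESeq2 1.42.0, its size factors, library totals, no filter, the mouse as a block, each replicate left out, and the spread of 48 libraries.

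Separated and bulk libraries, and organs, share mice per the labels. Same-numbered deviations correlated at -0.126 to 0.695 (Pearson's r across genes, which are not independent replicates). Part of the calls that the block changed are printed above. It also added Atf6, Dnajc3, Sec61g and Sel1l in separated spleen cells, where 26 members and 8122 of all 15026 genes passed. In separated liver cells it added Creld2, Dnajb11 and Pdia4 (27 members, 9754 of 13247 genes), and in PBS liver Atf4. The 38 members, all gene lists and markers were chosen with earlier results of these data known. Named genes were Hspa5, Xbp1 and Ddit3 always, plus up to 4 per direction with the largest log2 fold change among those past the threshold, filled up to 4 from genes of at least 5 CPM, and up to 3 per direction from companion lists; other members were named by role after their values were seen. Gene coordinates are 1-based in GRCm38 (GENCODE M21).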

Additional observations from a re-analysis of the deposited data

Results flagged for a closer look

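These values are given because the effect in tumor differed from that in the other organs by a test of the difference itself (edgeR's quasi-likelihood test, adjusted p under 0.05). Each fit shared 1 spread per gene over its organs, and its common spread was smaller than that of the tumor libraries fitted alone. For BP over PBS, the tumor's log2 effect minus the mean of the other 5 organs was -1.16 for Hyou1, -1.03 for Pdia4, -0.96 for Calr, -0.93 for Srpr, -0.90 for Sec61a1, -0.90 for Edem1 and -0.59 for Atf4; 4.06% of all genes passed in that contrast. For nanoparticle-associated cells over bulk, the tumor's log2 effect minus the mean of spleen, liver and marrow was 1.06 for Syvn1, 0.91 for Edem1, 0.70 for Dnajb9, 0.64 for Atf6, 0.56 for Sec61a1, 0.43 for Ssr3, -0.76 for Sec61b, -0.79 for Manf and -2.62 for Trib3. In this second contrast 23.8% of all genes passed, a share near that of the 38 genes. Syvn1, Edem1, Atf6, Sec61a1 and Ssr3 did not pass in tumor itself and fell in liver.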

How the results depend on the processing

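Of 54 named values past the threshold, 29 passed under every alternative tried, 25 lost it under at least 1 and 0 turned in sign. Of 51 that did not pass, 9 passed under some alternative and 11 changed sign. Calls of the 38 genes ranged, when replicates were left out, from 0 to 0 between BP and PBS in each organ, 1 to 7 for separated tumor cells, 15 to 20 for spleen, 22 to 27 for liver, 6 to 9 for marrow, 0 to 8 for the tumor's BP effect against other organs, 3 to 5 for its separated-cell effect, 18 to 25 for PBS tumor and 28 to 32 for PBS liver. With the spread of 48 libraries, BP tumors had 6 calls (1482 of all 18954 genes) and separated tumor cells 14 (5770 of 18954). With DESeq2 separated tumor cells had 11 (3303 of 14615). Without a filter the tumor's BP effect against other organs had 4 (665 of 31802), and with library totals PBS liver had 17 (13389 of 17696). When replicates were left out, calls over all genes for the tumor's BP effect against other organs ranged from 36 of 19040 to 2070 of 19119. They ranged from 20 of 15316 to 1935 of 15155 for separated tumor cells and 4471 of 15460 to 6446 of 15421 for spleen. For liver they were 9431 of 13659 to 10146 of 13645 and for marrow 289 of 13847 to 1899 of 13855. For the tumor's separated-cell effect they were 1656 of 17360 to 2421 of 17427. For PBS tumor they were 6374 of 17979 to 9307 of 17688 and for PBS liver 8525 of 17979 to 10591 of 17688. Hspa5 in separated liver cells turned to -0.73 under library totals. The cause of these changes was not tested. The mouse as a block gave 18 calls in marrow (2719 of all 13573 genes) and, apart from the values printed above, moved no count of calls by over 1.5 times. Replicate numbers of BP and PBS mice name different animals; with them as a replicate block 0 of the 38 genes passed in each organ. Depth limits Chac1 in bulk spleen and lymph node, whose values lie near the 3-count limit.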
